A study of Homo sapiens with 6 samples.

Results

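The genes GATA3, FOXA1, XBP1, TFF1, GREB1, KRT8, KRT18 and ELF5, 8 in all, mark luminal breast epithelium and were followed by chromatin immunoprecipitation and sequencing (ChIP-seq) of the kinase CDK2 and of PARP1. PARP1 is the enzyme that attaches chains of ADP-ribose to chromatin proteins. The members were chosen by position: 35 windows of 10 kb out of 303641, lying in 7 hg19 intervals given for the 8 genes, with KRT8 and KRT18 sharing 1 interval. All 35 had a mean of at least 10 reads over the 6 libraries, as had 278395 windows of the genome, which are called the compared windows here. The cells were T47D-MTVL, a derivative of the hormone-responsive luminal breast cancer line T47D with an integrated reporter under a mouse mammary tumour virus promoter. All cells had been deprived of steroid hormones and then of serum. The labels name this 1 line and no separate cultures. For each antibody 1 library came from untreated cells (0 min), 1 from cells given 10 nM of the synthetic progestin R5020 for 5 min, and 1 from cells given it for 30 min. Total reads lay between 40097131 (CDK2 at 30 min) and 63448449 (PARP1 at 30 min). The study asked how CDK2 activates PARP1 in the progestin response. What is compared here is whether coverage of these loci differed between the libraries before and after hormone, and between the antibodies.

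The luminal programme rests on transcription factors that keep one another active. FOXA1 is a pioneer factor of the forkhead family that opens chromatin for steroid receptors, and GATA3 is a zinc-finger factor that acts with it and with the oestrogen receptor. ELF5, an ETS factor, directs alveolar differentiation and is induced by progestins in mammary epithelium. XBP1, TFF1 and GREB1 are oestrogen receptor targets: XBP1 is a transcription factor of the unfolded protein response, TFF1 a secreted trefoil peptide and GREB1 a cofactor of the oestrogen receptor. KRT8 and KRT18 encode the paired keratins of simple epithelium. Poly(ADP-ribose) made by PARP1 loosens chromatin and displaces linker histone at progestin-responsive genes. These points are background. Expression was not measured, so no activity of a gene can be read from the values below.

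The intervals, in hg19, were 8080001 to 8120000 of chromosome 10 for GATA3 (4 windows), 38050001 to 38070000 of chromosome 14 for FOXA1 (2 windows), 29180001 to 29200000 of chromosome 22 for XBP1 (2 windows) and 43770001 to 43790000 of chromosome 21 for TFF1 (2 windows). They were 11660001 to 11790000 of chromosome 2 for GREB1 (13 windows), 53280001 to 53350000 of chromosome 12 for KRT8 and KRT18 (7 windows), and 34490001 to 34540000 of chromosome 11 for ELF5 (5 windows). Promoters, exons and introns were not placed in the windows, because the gene table used here has the coordinates of GRCh38.p14. By that table the nearest protein-coding genes on either side are TAF3 and CELF2 for GATA3, MIPOL1 and TTC6 for FOXA1, CCDC117 and ZNRF3 for XBP1, TFF2 and TMPRSS3 for TFF1, E2F6 and NTSR2 for GREB1, and CAT and EHF for ELF5. KRT78 precedes KRT8, and EIF4B follows KRT18.

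RefSeq promoters (GRCh38.p14) were at hand for 5 of the 8 genes, GATA3, FOXA1, XBP1, KRT8 and ELF5, with 11 entries in all. The 250 bases before the start of FOXA1 and of XBP1 are printed because their loci had the highest levels relative to their surroundings of the 7 in the CDK2 library of 30 min, and ELF5 because its locus stayed near its surroundings there. They were chosen after these values had been seen. All 3 are printed from the minus strand, 5′ to 3′. They span 37595250 to 37595499 of chromosome 14, 28800570 to 28800819 of chromosome 22 and 34511725 to 34511974 of chromosome 11 in that build. Capitals mark matches on either strand to the forkhead motif TGTTTNC, the CCAAT box CCAAT or the GC box GGGCGG.
FOXA1: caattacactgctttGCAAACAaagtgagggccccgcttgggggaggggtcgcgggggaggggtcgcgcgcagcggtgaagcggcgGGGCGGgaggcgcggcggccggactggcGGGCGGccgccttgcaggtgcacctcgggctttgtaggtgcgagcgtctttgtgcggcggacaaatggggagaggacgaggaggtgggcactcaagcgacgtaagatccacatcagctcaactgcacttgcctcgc
XBP1: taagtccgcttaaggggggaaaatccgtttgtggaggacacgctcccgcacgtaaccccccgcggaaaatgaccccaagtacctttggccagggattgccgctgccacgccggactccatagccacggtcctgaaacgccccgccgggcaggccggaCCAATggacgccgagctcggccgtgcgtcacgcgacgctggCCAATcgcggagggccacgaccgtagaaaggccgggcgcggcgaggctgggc
ELF5: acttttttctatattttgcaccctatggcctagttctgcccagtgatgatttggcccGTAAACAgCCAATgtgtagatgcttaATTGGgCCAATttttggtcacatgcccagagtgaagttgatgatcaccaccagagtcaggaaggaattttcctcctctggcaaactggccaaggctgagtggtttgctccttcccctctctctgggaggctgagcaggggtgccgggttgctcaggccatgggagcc

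XBP1 has 2 entries, of which the first in the table is printed; the other, not printed, held 0 CCAAT boxes, 3 GC boxes and 21 CpG dinucleotides. In the printed promoters FOXA1 held 1 forkhead match and 2 GC boxes, XBP1 2 CCAAT boxes, and ELF5 1 forkhead match and 3 CCAAT boxes. They differed in base composition, with 26 CpG dinucleotides in FOXA1, 31 in XBP1 and 2 in ELF5, against a median of 11 over 35116 promoters. Over the 11 entries of the 5 genes, the forkhead motif was present in 3 (15.5% of all promoters), CCAAT in 4 (32.0%) and the GC box in 6 (42.6%). Most of the 11 entries are alternative starts of GATA3, as are most of those with a GC box, so the counts largely describe that gene. Neither the progesterone receptor core AGAACA (12.4% of all promoters), nor the oestrogen receptor core AGGTCA (12.1%), nor the GATA motif AGATAA (9.17%) was present in any of the 11. These letters describe stretches far shorter than a 10 kb window, and no binding is read from them.

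Each antibody and time had a single library, so no value carries an error between replicates and no comparison has a replicate check. Ratios are of counts scaled by library totals. The 95% counting interval treats every read as independent. The widened 95% interval divides the counts by a dispersion, the scatter of single windows around the ratio of the 20 windows on each side, which was 24.5 for CDK2 at 5 against 0 min, 14.4 for CDK2 at 30 against 0 min, and 6.41 and 4.75 for PARP1. The CDK2 library of 5 min stands apart in this respect. The dispersion of CDK2 against PARP1 was 29.8 at 5 min, 4.51 at 0 min and 15.0 at 30 min. A locus is also set against its flank, the 20 windows on each side, and against all stretches of as many windows along the genome, given by their 5th and 95th percentiles.

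Before hormone, the 7 loci were covered much as the DNA around them. In CDK2 at 0 min the mean window relative to the median flanking window ran from 0.734 at TFF1 to 1.18 at XBP1, and in PARP1 from 0.846 at TFF1 to 1.16 at XBP1. Stretches of 2 windows had 0.680 to 1.32 for CDK2 and 0.705 to 1.26 for PARP1, and each of the 7 loci lay within the spread of stretches of its own length. Against the median compared window of the genome, ELF5 stood at 1.72 in both CDK2 and PARP1, GATA3 at 1.57 and 1.71, and KRT8/KRT18 at 1.5 in both. FOXA1 had 1.21 and 1.29. Below 1 in both were GREB1 (0.852 and 0.869), XBP1 (0.862 and 0.816) and TFF1 (0.832 and 0.978). The first 4 loci stood in the same order for both antibodies, while the last 3 did not. The last 3 differed from one another by less than the coefficient of variation between the windows of GREB1, 0.277 for CDK2 and 0.208 for PARP1. That coefficient is a spread of single windows and not an error of a locus mean, so it does not settle their order.

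Between the antibodies at 0 min, 0 of the 35 windows were past 2-fold in either direction, against 0.51% of all compared windows higher for CDK2 and 0.824% lower. The ratio of CDK2 to PARP1 over a locus ran from 0.861 at TFF1 (widened interval 0.599 to 1.23) to 1.07 at XBP1 (0.737 to 1.55). Every widened interval of the 7 held 1.

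**Figure D1:**
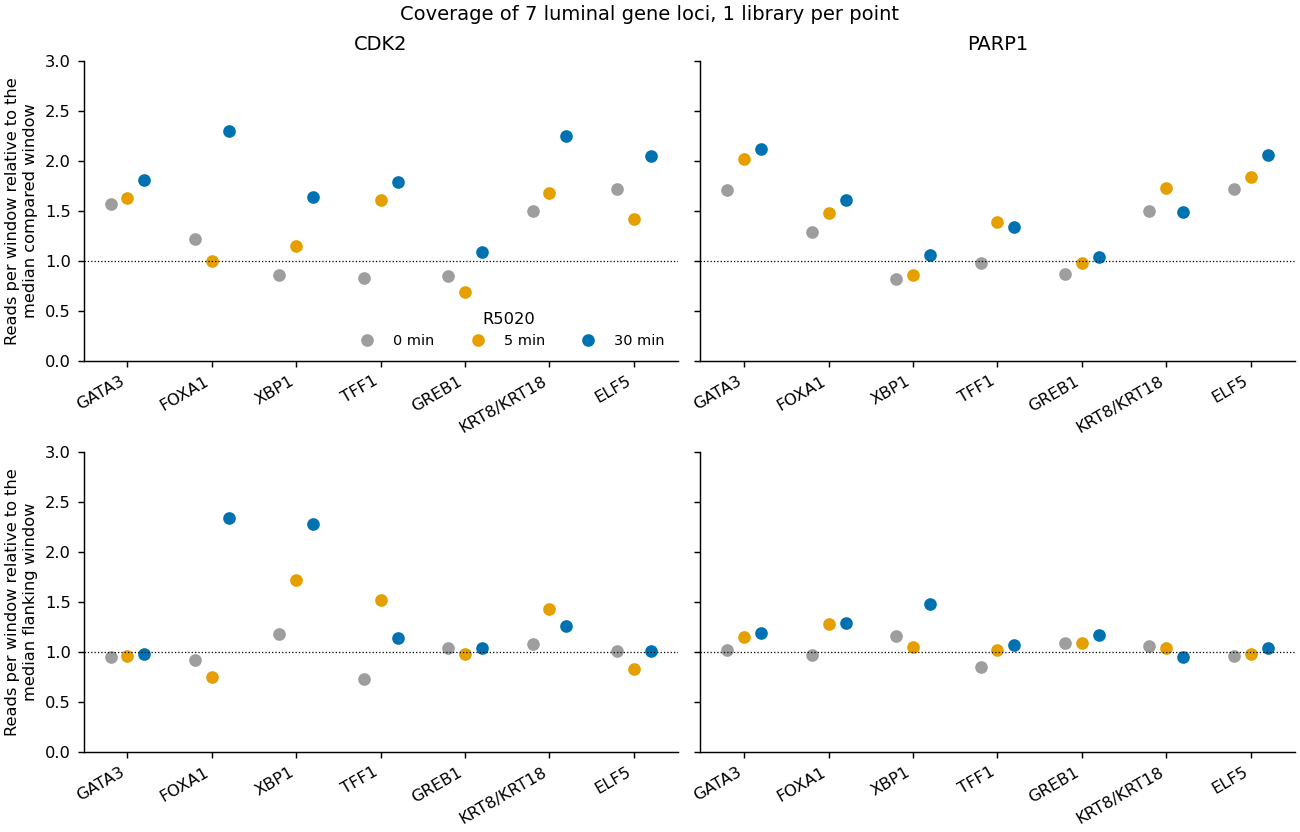
Mean reads per 10 kb window of each locus (x axis) for CDK2 (left) and PARP1 (right), relative to the median compared window (top) and to the median flanking window (bottom), 1 point per library. Relative to the flank, CDK2 at 30 min stands at 2.34 for FOXA1 and 2.28 for XBP1, above all other points of the bottom panels.

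After 30 min of R5020 the CDK2 library had more reads at all 7 loci than at 0 min. The locus ratio was 2.10 at TFF1, 1.87 at XBP1, 1.86 at FOXA1, 1.47 at KRT8/KRT18, 1.25 at GREB1, 1.17 at ELF5 and 1.13 at GATA3, against a median of 0.962 over all compared windows. The widened interval lay above 1 at 4 of 7, TFF1, XBP1, FOXA1 and KRT8/KRT18, and these 4 also lay above the 95th percentile of stretches of their length, KRT8/KRT18 narrowly (1.46). Over the 35 windows together 7648 reads stood against 6298, a ratio of 1.37 (widened 1.20 to 1.55). That interval leaves out regional drift, and stretches as long as GREB1 ran from 0.729 to 1.39 in this comparison. The 280 flanking windows, pooled, were higher as well, at 1.13, and relative to them the 35 windows had 1.21 (widened 1.06 to 1.38). Relative to their own flanks, stretches as long as GREB1 ran from 0.767 to 1.29. Each locus adds as many flanking windows as any other, whatever its length. Long loci thus weigh more among the members than in the pooled flanks, and the 1.21 is not matched locus by locus. Of single windows, 27 of 35 had a ratio above 1, or 77.1%, against 46.7% of all compared windows. Past 2-fold higher were 5 of 35 (14.3%), against 5.5% of all compared windows, and past 2-fold lower 0 of 35, against 11.6%.

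FOXA1 was the only locus of the 7 whose CDK2 ratio of 30 to 0 min, relative to the flank, had a widened interval above 1. Its first window held 156, 145 and 315 CDK2 reads in the order 0, 5 and 30 min, and its second held 206, 225 and 284. After scaling, both windows were highest at 30 min and lowest at 5 min. The locus ratio of 30 to 0 min was 1.86 (counting interval 1.63 to 2.13, widened 1.11 to 3.19), with 0.507 to 1.72 as the range of stretches of 2 windows. Its flank went the other way, with a ratio of 0.805, so that relative to the flank the ratio was 2.31 (widened 1.39 to 3.86; stretches 0.525 to 1.66). Directly between 30 and 5 min the ratio was 2.33 (widened 1.04 to 5.50), within the range of stretches, 0.439 to 2.58. Relative to the flank it was 2.97 (1.37 to 6.48), above the 95th percentile of stretches, 2.48. The difference did not extend at that size into the adjoining windows. The window just before it, 38040001 to 38050000, had 288 reads at 0 min and 135 at 30 min, a ratio of 0.527, and the window just after had 213 and 225, a ratio of 1.19. With these 2 windows added the FOXA1 ratio of 30 to 0 min was 1.25, or 1.53 relative to the flank, and that of 30 to 5 min was 1.35, or 1.68 relative to the flank. PARP1 at FOXA1 held 207, 269 and 378 reads in the first window and 261, 300 and 293 in the second. Its locus ratio was 1.16 at 5 min (widened 0.841 to 1.60) and 1.26 at 30 min (0.968 to 1.65), and both widened intervals held 1.

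At XBP1 the CDK2 reads were 121, 203 and 157 in the first window and 136, 223 and 270 in the second, at 0, 5 and 30 min. Both windows were higher at 5 and at 30 min than at 0 min after scaling. The locus ratio was 1.29 at 5 min (widened 0.568 to 3.10) and 1.87 at 30 min (1.01 to 3.57), and relative to the flank it was 1.80 at 30 min (0.979 to 3.31; stretches 0.525 to 1.66). The higher coverage was not bounded by the interval, since the window before it had a ratio of 1.95 and the window after it 1.29. PARP1 held 172, 183 and 177 reads in the first window and 125, 148 and 265 in the second. In the second window PARP1 and CDK2 were thus both highest at 30 min. The PARP1 ratio over the locus was 1.06 at 5 min and 1.31 at 30 min (widened 0.939 to 1.83).

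At TFF1 CDK2 was higher after hormone at both times and in both windows, with a different window leading at each time. The first window held 133, 430 and 197 CDK2 reads at 0, 5 and 30 min and the second 115, 167 and 267. After scaling the first was highest at 5 min and the second at 30 min. The locus ratio was 1.88 at 5 min (widened 0.870 to 4.38) and 2.10 at 30 min (1.14 to 4.03), both above the 95th percentile of stretches, 1.72. The flank of TFF1 had 1.37 at 30 min, so the ratio relative to it was 1.53 (0.843 to 2.78), and that interval held 1. At 5 min the ratio relative to the flank was 2.07 (0.977 to 4.38), an interval that also held 1. The window before the interval had a ratio of 0.684 at 30 min and the window after it 1.89. With these 2 windows added the TFF1 ratio of 30 to 0 min was 1.66, or 1.19 relative to the flank. PARP1 held 213, 262 and 259 reads in the first window and 143, 270 and 296 in the second, and both windows were lowest before hormone after scaling. The PARP1 ratio was 1.42 (widened 1.00 to 2.04) at 5 min and 1.37 (1.02 to 1.86) at 30 min, and 1.20 (0.849 to 1.70) and 1.23 (0.916 to 1.66) relative to the flank.

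**Figure D2:**
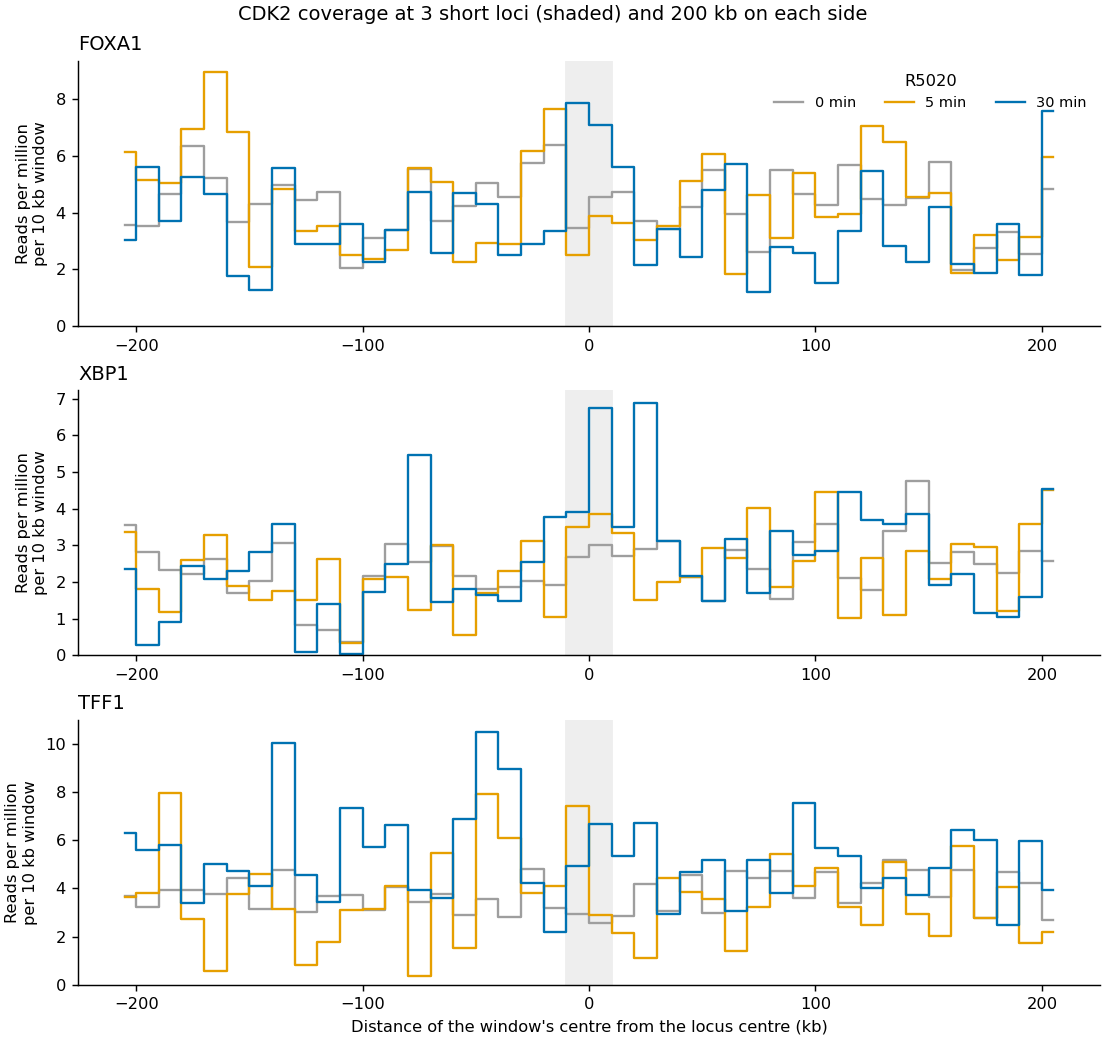
CDK2 reads per 10 kb window, scaled by library totals (y axis), against distance from the centre of the FOXA1, XBP1 and TFF1 intervals (x axis, kb), 1 line per time, with the interval shaded. At FOXA1 the 30 min line is above the others in both shaded windows and below them in the window before; at XBP1 and TFF1 it is also high in windows outside the shading.

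The KRT8/KRT18 interval had 6 of 7 windows higher for CDK2 at 30 min than at 0 min. The ratio was 1.47 (widened 1.14 to 1.91), the flank had 1.23, and relative to it the ratio was 1.20 (0.910 to 1.58), an interval that held 1. The window with the most reads over the 6 libraries, 53320001 to 53330000, held 174, 520 and 402 CDK2 reads at 0, 5 and 30 min. It was chosen on these same counts, so its ratios are no separate support. At 0 min it held the fewest reads of the interval for both antibodies. It was past 2-fold at both times, with 2.33 (widened 0.961 to 6.45) at 5 min and 2.60 (1.28 to 5.60) at 30 min. PARP1 held 222, 296 and 328 reads there, which after scaling was also lowest at 0 min. The window with the fewest reads over the 6 libraries, 53330001 to 53340000, held 234, 158 and 244 CDK2 and 299, 279 and 242 PARP1 reads. Its CDK2 ratio at 30 min was 1.17 (0.558 to 2.47). Over the interval PARP1 had 1.15 (widened 0.988 to 1.35) at 5 min and 0.996 (0.869 to 1.14) at 30 min. The antibodies differed here at 30 min, with CDK2 to PARP1 at 1.49 (widened 1.17 to 1.90) and 1.42 (1.10 to 1.83) relative to the flank. The same ratio was 1.01 (0.872 to 1.16) at 0 min.

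At GATA3, ELF5 and GREB1 CDK2 at 30 min was close to the flank. Relative to it the ratio was 1.04 (widened 0.727 to 1.49) at GATA3, 1.01 (0.741 to 1.37) at ELF5 and 1.02 (0.759 to 1.36) at GREB1. In GREB1, the longest interval, 8 of 13 windows were higher and 5 lower at 30 min. The window 11750001 to 11760000, named after its values had been seen, held 75, 73 and 231 CDK2 reads, a ratio of 3.47 (widened 1.23 to 11.8) at 30 min. The flank of GREB1 had 1.23 and that of ELF5 1.16, so the higher raw ratios of these 2 loci went with higher coverage around them.

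At 5 min CDK2 was not higher over the members as a whole. The 35 windows had a ratio of 0.959 (widened 0.811 to 1.14), with 16 above 1 and 19 below. Past 2-fold higher were 2 of 35 (5.71%), against 6.22% of all compared windows, and past 2-fold lower 6 of 35 (17.1%), against 16.2%, so both shares were near the background. The loci were split: TFF1 and XBP1 had the highest ratios, given above, KRT8/KRT18 had 1.09, or 0.933 without its highest window, and GATA3 had 1.00, while GREB1 (0.781), FOXA1 (0.798) and ELF5 (0.800) were below 1. None of the 7 widened intervals left out 1. At GATA3 the last window, 8110001 to 8120000, held 239, 114 and 279 CDK2 reads, and PARP1 held 330, 483 and 413 there. CDK2 alone was low in that window at 5 min, with a ratio of 0.372 (widened 0.0947 to 1.23) to 0 min. The lowest single ratio, 0.176, was in GREB1 at 11710001 to 11720000, named after its values had been seen, where 133, 30 and 116 CDK2 reads were counted. PARP1 held 189, 183 and 280 reads in that window.

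PARP1 differed less between times, and mostly in 1 direction. Ratios to 0 min were above 1 at 7 of 7 loci at 5 min, from 1.06 at XBP1 to 1.42 at TFF1, and at 6 of 7 at 30 min, from 0.996 at KRT8/KRT18 to 1.37 at TFF1. The median over all compared windows was 0.991 and 0.996. Over the 35 windows the ratio was 1.15 (widened 1.06 to 1.24) at 5 min and 1.17 (1.10 to 1.25) at 30 min. These intervals leave out regional drift as well. Stretches as long as GREB1 ran from 0.808 to 1.25 at 5 min and from 0.845 to 1.18 at 30 min. The pooled flanks had 1.08 and 1.07, and relative to them the ratio was 1.06 (0.979 to 1.15) and 1.09 (1.02 to 1.17). Relative to their own flanks, stretches as long as GREB1 ran from 0.856 to 1.17 and from 0.880 to 1.13. Here too the loci are weighted differently in members and flanks. Past 2-fold higher was 1 of 35 windows at each time, against 0.93% of all compared windows at 5 min and 0.452% at 30 min. Past 2-fold lower were 0 of 35, against 1.79% and 0.635%. The loci TFF1, GATA3, ELF5 and GREB1, 4 of 7, had widened intervals above 1 at 30 min. Of these, TFF1 and GREB1 also lay above the 95th percentile of stretches of their length, GREB1 narrowly (1.197 against 1.181). GATA3 (1.247 against 1.254) and ELF5 (1.207 against 1.235) lay within the range of stretches. For each antibody the comparisons with 0 min share that library, so their values are not independent.

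GATA3 was the only locus of the 7 whose PARP1 ratio to 0 min, relative to the flank, had a widened interval above 1, at 30 min. Its 4 windows held 338, 238, 337 and 330 PARP1 reads at 0 min, 377, 252, 442 and 483 at 5 min. The counts after 30 min were 449, 481, 420 and 413. All 4 were higher than at 0 min at both times after scaling, and the second, 8090001 to 8100000, was high only at 30 min. The ratio was 1.19 (widened 0.983 to 1.45) at 5 min and 1.25 (1.06 to 1.47) at 30 min. Relative to the flank it was 1.21 (1.02 to 1.42) at 30 min, within the range of stretches of 4 windows, 0.816 to 1.22. CDK2 in these windows held 192, 241, 266 and 239 reads at 0 min, 356, 373, 362 and 114 at 5 min. The counts after 30 min were 191, 159, 310 and 279. CDK2 was thus low at 30 min in the second window, where PARP1 was high. The ratios of 30 to 0 min there were 0.742 (widened 0.314 to 1.68) for CDK2 and 1.78 (1.25 to 2.54) for PARP1. CDK2 to PARP1 at 30 min was 0.523 (0.235 to 1.07). That interval and the CDK2 interval held 1.

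In GREB1 1 window was past 2-fold for PARP1 at both times, 11690001 to 11700000. It held 123, 269 and 305 PARP1 reads at 0, 5 and 30 min, with ratios of 2.09 (widened 1.19 to 3.79) and 2.18 (1.36 to 3.59). CDK2 held 194, 197 and 193 reads in it, a ratio of 1.12 (0.485 to 2.58) at 30 min. This window also had the highest mean of the interval over the 6 libraries, and it was chosen on these same counts. The lowest, 11700001 to 11710000, adjoins it and held 112, 175 and 250 PARP1 and 83, 124 and 97 CDK2 reads. Over the 13 windows the PARP1 ratio was 1.13 (0.974 to 1.32) at 5 min and 1.20 (1.06 to 1.36) at 30 min. The flank had 1.12 at 30 min, which left 1.06 (0.921 to 1.23).

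ELF5 held 305, 344, 328, 334 and 251 PARP1 reads in its 5 windows at 0 min, 337, 364, 369, 310 and 382 at 5 min. The counts after 30 min were 290, 447, 458, 390 and 560. At 30 min 4 of 5 windows were higher than at 0 min, and the last, 34530001 to 34540000, was the highest. The PARP1 ratio was 1.21 (widened 1.04 to 1.40) at 30 min, but 1.09 (0.940 to 1.27) relative to the flank. CDK2 held 260, 262, 275, 223 and 262 reads there at 0 min, 235, 393, 207, 120 and 359 at 5 min. The counts after 30 min were 148, 269, 257, 318 and 341. The CDK2 windows of ELF5 differed little from one another at 0 min and more at 5 min, with a coefficient of variation of 0.0765 against 0.427. That was not particular to ELF5. The coefficient was also higher at 5 min at every other locus except XBP1 (0.0825 at 0 min, 0.0664 at 5 min). GATA3, for example, had 0.132 and 0.415, and KRT8/KRT18 0.155 and 0.464. The CDK2 library of 5 min had more scatter between windows genome-wide, as given above.

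**Figure D3:**
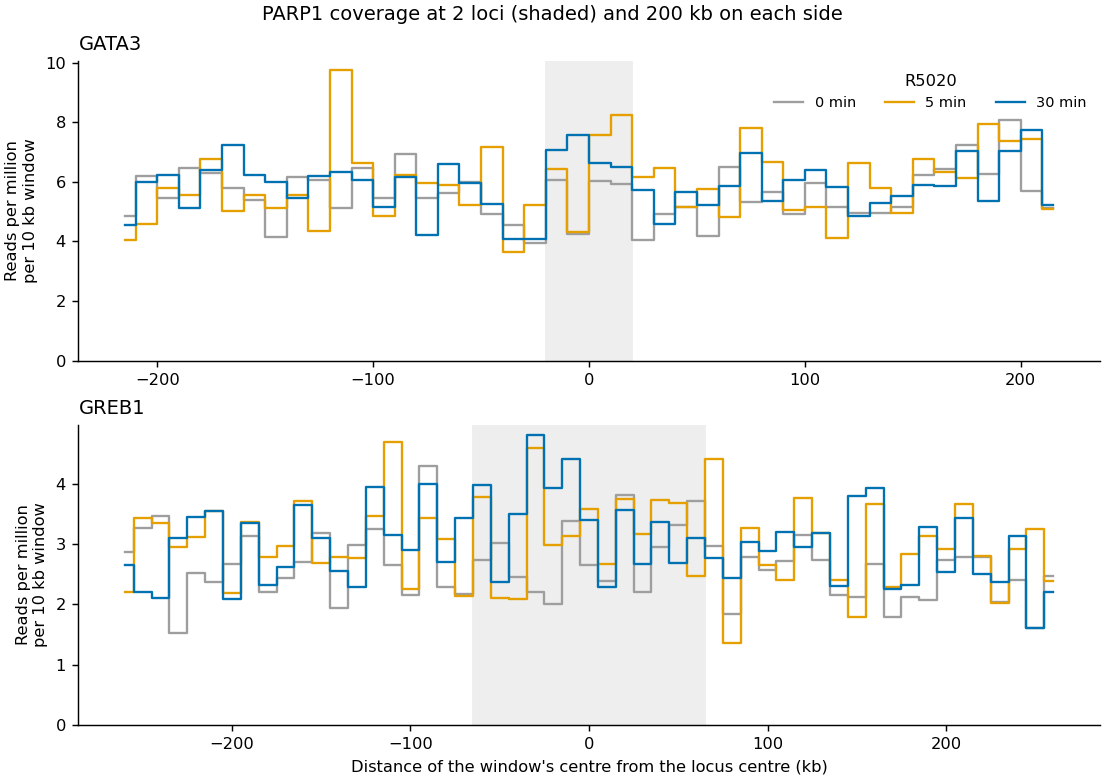
PARP1 reads per 10 kb window, scaled by library totals (y axis), against distance from the centre of the GATA3 and GREB1 intervals (x axis, kb), 1 line per time, with the interval shaded. At GATA3 the 30 min line is above the 0 min line in all 4 shaded windows; at GREB1 the lines of 5 and 30 min exceed that of 0 min most in the window with 123, 269 and 305 reads.

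**Figure D4:**
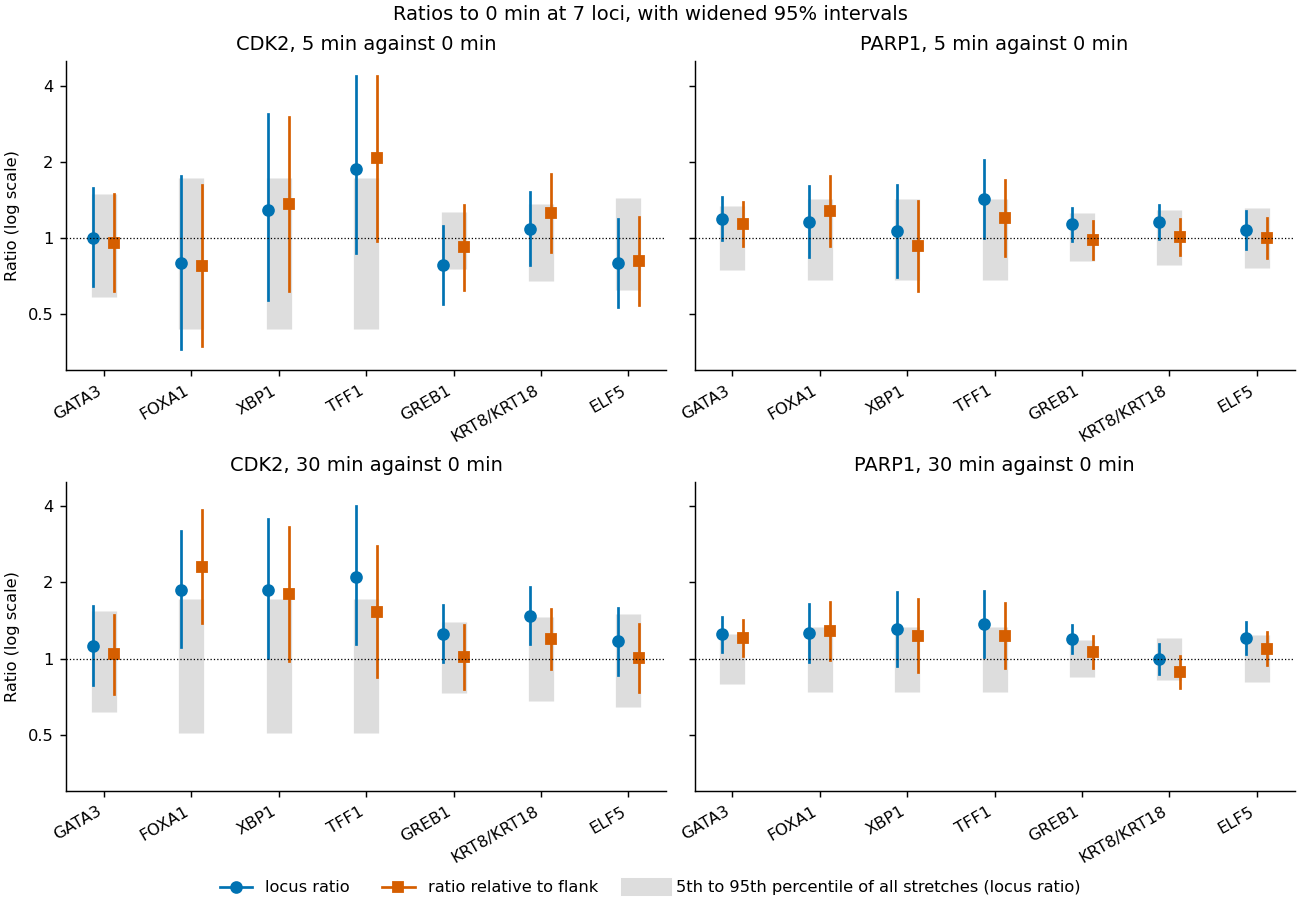
Ratios to 0 min on a log scale (y axis) for each locus (x axis), at 5 min (top) and 30 min (bottom), for CDK2 (left) and PARP1 (right). Circles are locus ratios and squares ratios relative to the flank, both with widened 95% intervals, and grey bars span the 5th to 95th percentile of locus ratios of all stretches of as many windows. For CDK2 at 30 min all 7 circles are above 1 and 4 of them lie above their grey bar.

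Between the antibodies after hormone, pooled CDK2 over PARP1 at the members was below 1 at 5 min and above 1 at 30 min. At 5 min the ratio over the 35 windows was 0.824 (widened 0.697 to 0.974), and at 30 min 1.15 (1.02 to 1.29). These intervals leave out regional drift too, and stretches as long as GREB1 ran from 0.697 to 1.39 and from 0.786 to 1.27. At 5 min 2 of 7 loci, XBP1 and TFF1, were above 1. At 30 min 5 of 7 were, with GATA3 (0.843) and ELF5 (0.983) below 1. At each time 1 widened interval of the 7 left out 1, GREB1 at 5 min and KRT8/KRT18 at 30 min. Relative to the pooled flanks, which weight the loci differently, the 35 windows had 0.922 (0.775 to 1.10) at 5 min and 1.08 (0.959 to 1.22) at 30 min. Both intervals held 1. At 5 min 8 of 35 windows were past 2-fold lower for CDK2, against 17.1% of all compared windows, and 0 of 35 higher, against 8.03%. The 30 min libraries had 2 windows higher, against 3.87%, and 2 lower, against 10.4%, and all 4 were in GREB1 with scaling by totals. These were 11670001 to 11680000 and 11750001 to 11760000, with 2.22 and 2.16, and 11660001 to 11670000 and 11770001 to 11780000, with 0.457 and 0.463. None of their widened intervals left out 1. With TMM or median-of-ratios scaling, 2 windows of KRT8/KRT18 also passed 2-fold. With scaling by totals these had 1.96 (widened 1.10 to 3.54) at 53300001 to 53310000 and 1.94 (1.06 to 3.58) at 53320001 to 53330000, and both intervals left out 1. FOXA1 differed most from its flank between the antibodies at 30 min, with 1.73 (1.11 to 2.69).

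Likeness among the loci was measured over the 6 libraries as the mean absolute difference of the log2 level relative to the flank. Of 21 pairs of loci the closest were GATA3 and GREB1 (0.07), GREB1 and ELF5 (0.14) and GATA3 and ELF5 (0.14). All 3 loci stayed near their flanks over the 6 libraries. GATA3 ran from 0.953 to 1.19, GREB1 from 0.980 to 1.17 and ELF5 from 0.832 to 1.04. Their closeness is thus one of levels near 1, and no spread of other loci was set beside it.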

How the data were processed

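CDK2 and PARP1 ChIP-seq was analysed in 6 libraries of T47D-MTVL cells, 1 per antibody and time, grouped by their titles. The authors deposited read counts in 10 kb windows; the values are whole numbers with a different total in each library, and no normalization is recorded. Alignment was with Bowtie 1.0.0 to hg19, per the submitters' processing notes; the treatment of duplicates and of reads with several matches was not stated there. Windows with a mean of at least 10 counts were compared genome-wide, after scaling by library totals. Locus counts were summed; counting intervals are exact conditional binomial intervals at 95%, and widened ones use counts divided by the dispersion. Intervals relative to the flank use a log-normal approximation with that dispersion. A window was called past the fold at a ratio of at least 2 or at most 0.5, with no p-value. Functions were tested on simulated data. Members, lists and alternatives were chosen with earlier results of these data known. Named were all 8 genes, every window of loci of up to 5 windows, and in longer loci the windows of highest and lowest mean and those past the fold at both times. Other luminal and basal gene lists were not evaluated, since no hg19 annotation was used here. An input library was not analysed here. Alternatives used TMM factors from edgeR 4.0.16 and size factors from DESeq2 1.42.0, both for scaling only. Other tools were Python 3.11.15, numpy 2.4.6, scipy 1.17.1, pandas 2.3.3, matplotlib 3.10.9 and R 4.3.3.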

Additional observations from a re-analysis of the deposited data

How the results depend on the processing

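With TMM and median-of-ratios scaling the ratio over the 35 windows was 1.00 and 1.01 for CDK2 at 5 against 0 min, where its direction is therefore not set, 1.41 and 1.42 for CDK2 at 30 against 0 min, 0.855 and 0.859 for CDK2 against PARP1 at 5 min, and 1.19 and 1.19 at 30 min. Windows past 2-fold higher for CDK2 over PARP1 at 30 min became 4 and 4. Without the window of highest mean of each locus of at least 4 windows, the ratio was 0.910 for CDK2 and 1.11 for PARP1 at 5 against 0 min, 1.13 for PARP1 at 30 against 0 min and 0.786 for CDK2 against PARP1 at 5 min. At 1.5-fold, with the share of all compared windows in parentheses, CDK2 against 0 min had 4 of 35 members higher (18.0%) and 9 lower (27.5%) at 5 min. At 30 min it had 13 higher (16.7%) and 3 lower (23.7%). PARP1 had 4 higher (7.17%) and 0 lower (9.22%) at 5 min. Its 30 min library had 7 higher (4.42%) and 0 lower (5.21%). CDK2 over PARP1 had 1 higher (4.51%) and 2 lower (5.61%) before hormone, then 4 (20.1%) and 14 (28.3%) in the 5 min libraries, and 9 (14.3%) and 5 (22.0%) in the 30 min libraries. With no filter on low counts, with widened loci, or with an adjusted exact binomial p under 0.05 also required, all 14 counts stayed within 1.5 times. Among 63 locus ratios, 2 were on the other side of 1 under each scaling, among them PARP1 at KRT8/KRT18 at 30 against 0 min, and 8 with 1 window added on each side. Without the highest window 3 of 36 were, and of 63 ratios relative to the flank 10 were with added windows and 2 with 50 flanking windows on each side. Added windows moved 1 locus ratio and 2 ratios relative to the flank by over 1.5 times, those of FOXA1 given above. The cause was not tested. No paired analysis was possible because each antibody and time had 1 library, and none could be left out.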
